A study of Mus musculus with 16 samples.

Results

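The genes described here are 33 mouse genes of the unfolded protein response and of protein folding in the endoplasmic reticulum (ER), measured by RNA sequencing in liver. They were taken by symbol from a count table of 41585 rows, and all 33 have a row. They comprise 15 ER chaperones and folding factors, 7 genes of ER-associated degradation, 4 stress sensors and transducers, 6 genes of the ATF4 arm and 1 subunit of the translocon (Sec61b), the channel through which new proteins enter the ER. Of the 33, 32 passed the filter on low counts, among 13470 genes tested in all, and Asns did not. The study compared hCYP2B6-Tg mice, which per their name carry the human cytochrome P450 gene CYP2B6, with Cyp2b-null mice in diet-induced obesity. The 4 groups of 4 libraries each are hCYP2B6-Tg females, Cyp2b-null females, hCYP2B6-Tg males and Cyp2b-null males. All groups share the C57BL/6 strain and a diet of 60% fat for 16 weeks, and no group on another diet is included, so the levels below have no lean reference. The labels give neither the age of the mice, nor the promoter that drives the transgene, nor which Cyp2b genes the null mice lack. They also do not say that each library is a separate animal, so a p-value here reflects variation among libraries, part of which may be technical.

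Secretory proteins fold in the ER with the help of chaperones, of which BiP, the product of Hspa5, is the most studied. When unfolded proteins accumulate, membrane sensors signal to the nucleus: IRE1α (Ern1) splices the mRNA of the transcription factor XBP1, ATF6 releases its own cytosolic part as a transcription factor, and PERK (Eif2ak3) phosphorylates the initiation factor eIF2α, which slows translation in general and favours translation of ATF4. XBP1 and ATF6 raise chaperones and the machinery of ER-associated degradation, which returns misfolded proteins to the cytosol for destruction, while ATF4 raises genes of amino acid metabolism and genes such as Ddit3, Trib3 and Chac1. Hepatocytes secrete most plasma proteins and carry an extensive ER. Splicing of Xbp1, cleavage of ATF6 and phosphorylation of eIF2α are not visible in gene counts.

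The promoters of these genes are shown because members with the same element can be set beside one another in the results that follow. RefSeq promoter windows of GRCm38.p6, 250 bases before to 50 bases after the start, were found for 29 of the 33 members, and Manf, Hyou1, Atf6 and Derl1 had no entry. The ER stress response element (ERSE), searched as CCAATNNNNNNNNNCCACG on both strands, was in 9 of the 29 members, or 31%, against 39 of 32851 windows of all genes, or 0.119%. Each stretch below is given 5′ to 3′ in the sense of the gene, with the matched element in capitals; where the capitals begin with CGTGG the element lies on the opposite strand.
Hspa5, chr2:34772005-34772063, plus strand: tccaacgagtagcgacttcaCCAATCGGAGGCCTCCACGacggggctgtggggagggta
Hsp90b1 upstream copy, chr10:86705618-86705676, minus strand: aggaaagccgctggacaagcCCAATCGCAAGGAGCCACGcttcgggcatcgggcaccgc
Hsp90b1 second copy, chr10:86705513-86705571, minus strand: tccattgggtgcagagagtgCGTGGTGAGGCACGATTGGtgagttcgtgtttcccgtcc
Calr, chr8:84847055-84847113, minus strand: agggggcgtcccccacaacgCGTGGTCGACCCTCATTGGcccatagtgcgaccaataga
Canx, chr11:50325780-50325838, minus strand: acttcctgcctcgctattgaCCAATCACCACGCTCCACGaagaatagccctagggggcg
Pdia6, chr12:17266471-17266529, plus strand: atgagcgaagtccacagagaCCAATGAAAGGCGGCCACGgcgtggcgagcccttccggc
Dnajc3, chr14:118937807-118937865, plus strand: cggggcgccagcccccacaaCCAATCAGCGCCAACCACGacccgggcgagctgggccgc
Creld2, chr15:88819500-88819558, plus strand: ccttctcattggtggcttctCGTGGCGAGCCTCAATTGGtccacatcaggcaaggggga
Derl3, chr10:75893222-75893280, plus strand: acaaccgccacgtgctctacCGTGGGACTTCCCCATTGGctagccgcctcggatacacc
Syvn1, chr19:6046512-6046570, plus strand: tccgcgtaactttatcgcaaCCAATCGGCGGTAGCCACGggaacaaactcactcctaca

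A shorter form, ERSE-II, searched on both strands as ATTGG, any 1 base and CCACG, was in 12 of the 32851 windows, or 0.0365%, among them those of Herpud1 and Dnajb11. The element of the ATF4 arm, searched as TGATGNAA on both strands and short enough to occur by its letters alone in 3.97% of windows, was in those of Asns, Chac1, Trib3 and Herpud1. Herpud1, which scaffolds the degradation complex in the ER membrane, was the member with a match to both of these. An XBP1 element, searched as TGACGTGG on both strands and found in 0.676% of windows, matched in 0 of the 29 member windows. A match is a description of letters and not evidence of a bound factor.
Herpud1 with ERSE-II, chr8:94386357-94386407, plus strand: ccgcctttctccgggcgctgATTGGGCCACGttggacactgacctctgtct
Herpud1 with the ATF4 element on the opposite strand, chr8:94386297-94386344, plus strand: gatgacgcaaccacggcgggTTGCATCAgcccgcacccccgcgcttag
Asns, chr6:7693210-7693252, minus strand: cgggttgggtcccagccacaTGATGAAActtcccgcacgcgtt
Chac1 with the element on the opposite strand, chr2:119351029-119351076, plus strand: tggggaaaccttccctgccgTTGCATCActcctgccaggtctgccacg

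As a check of the libraries, totals ran from 5584587 to 9672708 counts, and ribosomal RNA rows took 2.76% to 9.31% of a library. The hepatocyte markers Alb, Apoa1, Ttr, Serpina1c and Fgb were abundant in every library, with a summed level of 98115 to 130755 CPM (counts scaled to library size, here with edgeR's TMM factors). Plasma cell and B cell markers, a cell type rich in ER chaperones, summed to 4.67 to 21.6 CPM over their 6 genes. Of 8 pancreatic acinar markers, Cpa1, Pnlip, Clps and Try5 were at 0 counts in all libraries, while Ctrb1 had 159 counts in Cyp2b-null male 4 and at most 1 in any other library; that library also had the highest summed acinar and cholangiocyte markers, 56.6 and 97.9 CPM. RNA came from whole liver, so fewer cells of a type and less RNA per cell cannot be told apart.

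Per kilobase of exon, the most abundant member was P4hb, the beta subunit of prolyl hydroxylase and a protein disulfide isomerase, at 471 CPM per kilobase over all libraries. Hsp90b1 (the chaperone GRP94), Calr (calreticulin) and Hspa5 followed at 259, 258 and 250 CPM per kilobase, and Pdia3, the disulfide isomerase that works with calreticulin and calnexin, and Herpud1 stood at 162 CPM per kilobase each. The sensors and transducers were far below these members: Xbp1 reached 61.2 CPM per kilobase, Atf6 10.6, Ern1 4.54 and Eif2ak3 3.25. Xbp1 still stood above several chaperones, among them Creld2 at 33.1 and Sdf2l1 at 24.9 CPM per kilobase. The ATF4 arm was low apart from Atf4 itself, at 32 CPM per kilobase, with Ddit3 at 5.26 and Trib3, Ppp1r15a and Chac1 between 2.46 and 3.0. Asns, which encodes asparagine synthetase, was at 0.192 CPM per kilobase and had 0 to 16 counts per library, too few for the main test. Summed over members, the chaperones took 0.737%, 0.575%, 0.653% and 0.645% of the counts in hCYP2B6-Tg females, Cyp2b-null females, hCYP2B6-Tg males and Cyp2b-null males, and the ATF4 arm 0.0103%, 0.0105%, 0.0102% and 0.0103%. Exons of Hsp90b1, Pdia3, Pdia4, Pdia6, Dnajb9, Manf, Eif2ak3, Derl2, Syvn1, Ddit3 and Ppp1r15a overlap another gene in GENCODE M21, and no strand setting for the counting was found in the sources used here, so their counts may include reads of the neighbour.

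Chaperone levels differed widely between libraries of the same group. Hspa5 had 1124, 1521, 1038 and 2062 CPM in hCYP2B6-Tg female libraries 1, 2, 4 and 5, against 815, 627, 815 and 1264 CPM in Cyp2b-null female libraries 1, 3, 4 and 5. In males it had 878, 1040, 622 and 1297 CPM in hCYP2B6-Tg libraries 2, 3, 4 and 5, against 652, 902, 1609 and 658 CPM in Cyp2b-null libraries 1, 2, 3 and 4. The groups overlap, and 1 library stands above the other 3 in each. That library was the highest of its group for 15 of 15 chaperones in hCYP2B6-Tg female 5, 14 of 15 in Cyp2b-null female 5, 13 of 15 in hCYP2B6-Tg male 5 and 15 of 15 in Cyp2b-null male 3. Summed over the 15 chaperones, these libraries reached 9641, 6737, 7300 and 8279 CPM, and the remaining 12 libraries spanned 5153 to 7672 CPM. The ATF4 arm did not share this order: of its 6 genes, 1, 3, 3 and 1 were highest in those libraries.

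**Figure D1:**
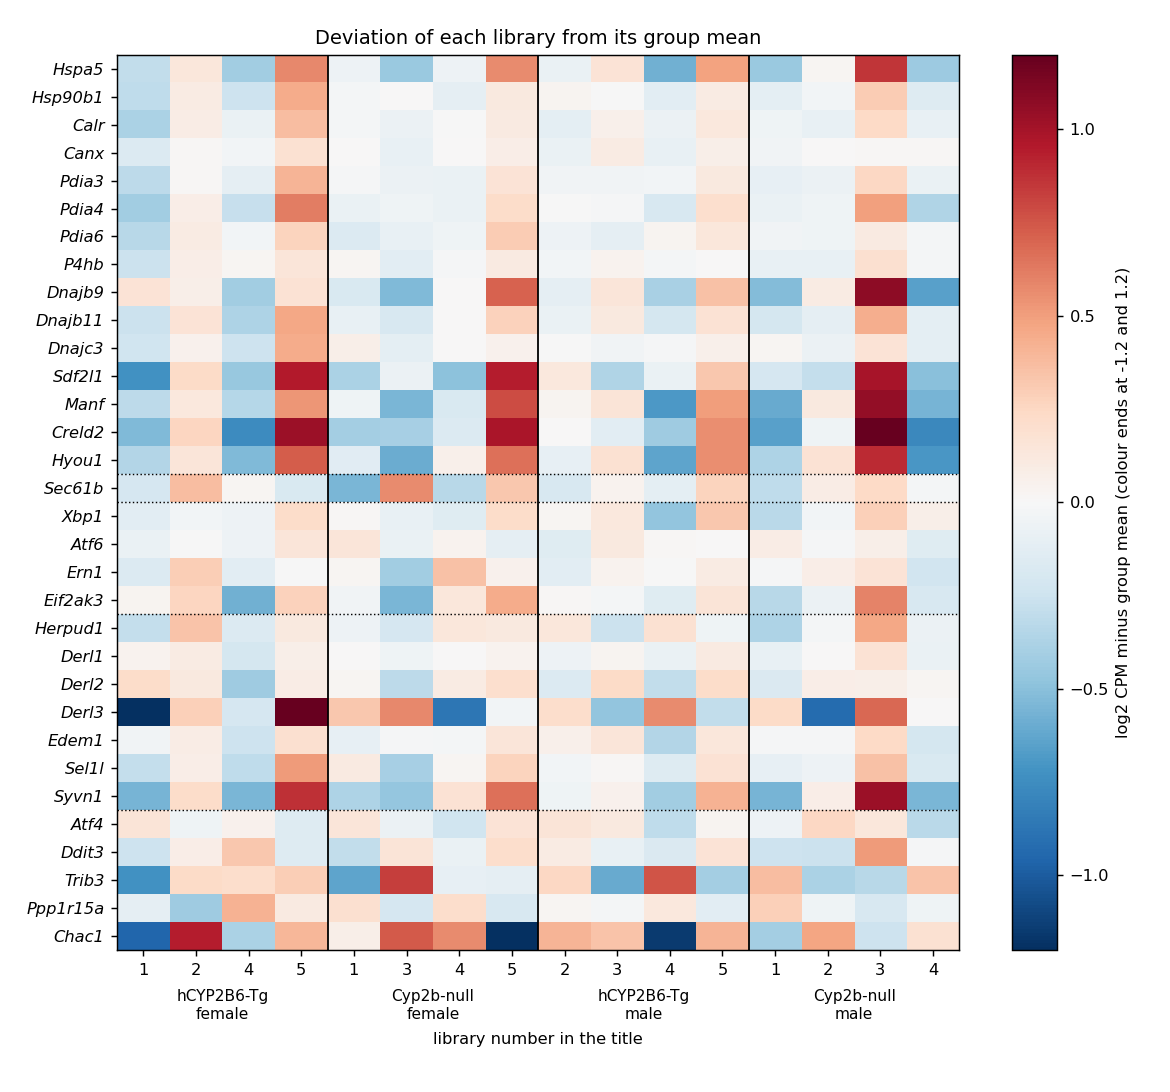
Heat map of the log2 CPM of each tested member (rows, grouped by arm with dotted lines) in each library (columns, grouped by genotype and sex), after subtraction of the group mean, with red above and blue below the mean. A red column crosses most chaperone rows in hCYP2B6-Tg female 5, Cyp2b-null female 5, hCYP2B6-Tg male 5 and Cyp2b-null male 3, while the ATF4 arm rows are mixed there.

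These 4 libraries, each the highest of its group, were also compared on measures of the library itself. Their totals were 7617957, 9672708, 8739746 and 7402265 counts, and their ribosomal RNA shares 4.50%, 6.4%, 7.0% and 5.49%. Hepatocyte markers summed to 104343, 125435, 105612 and 100081 CPM in them, inside the range of the other 12 libraries, plasma cell and B cell markers to 5.49, 8.0, 5.09 and 5.13 CPM, and immediate early genes, which rise within minutes of handling or stress, to 93.6, 73.3, 68.8 and 92.7 CPM. The ribosomal RNA and plasma cell values fell inside the ranges of the other 12 libraries. So did the immediate early sums, except that of hCYP2B6-Tg male 5, which was the lowest of the 16. Within their own groups, hCYP2B6-Tg female 5 and hCYP2B6-Tg male 5 had the lowest hepatocyte and plasma cell sums. Cyp2b-null female 5 had the lowest immediate early sum of its group. Ribosomal RNA share was the lowest of its group in hCYP2B6-Tg female 5 and the highest in hCYP2B6-Tg male 5. The TMM factor was the highest of the 16 in hCYP2B6-Tg female 5, at 1.03, and the lowest in hCYP2B6-Tg male 5, at 0.966. Cyp2b-null female 5 was the deepest library, and Cyp2b-null male 3 had the lowest sum of stellate cell markers of the 16, 202 CPM against 218 CPM in the next lowest. Of the 4 libraries, 3 carry the number 5 in their titles, and the Cyp2b-null males have no library of that number; what the numbers stand for is not stated. The labels used here give no litter, cage or hour of collection.

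The size of the variation differed between members. Creld2, a disulfide isomerase-like protein of the ER induced by ER stress, had 47.8, 83.1, 40.9 and 141 CPM in hCYP2B6-Tg females, against 20.8, 21.0, 24.8 and 55.0 CPM in Cyp2b-null females. In males it had 33.4, 30.4, 24.6 and 48.9 CPM in hCYP2B6-Tg libraries, against 19.3, 29.4, 84.8 and 17.7 CPM in Cyp2b-null libraries. The highest library of each group lay well above the other 3 of that group, and the within-group SD of 0.76 on the log2 scale was larger than that of 98.0% of all tested genes. Derl3 (0.96, above 99.5% of genes) and Chac1 (0.77, above 98.1%), both at low counts, had a larger SD than Creld2. The SD was also above that of 92% of genes for Sdf2l1 (0.62), Syvn1 (0.60), Manf (0.58) and Hyou1 (0.58). It was above that of 90.6% for Trib3 (0.54), 89.3% for Dnajb9 (0.52) and 87.1% for Hspa5 (0.49). At the other end, Canx (calnexin, 0.09), Derl1 (0.11), Atf6 (0.11) and P4hb (0.12) were among the steadiest genes, with 3.96%, 6.59%, 7.16% and 11.8% of genes below them. The median over the 15 chaperones was 0.28, against 0.24 over all 13470 tested genes. These ranks compare genes of every level, and the SD was not compared among genes of like counts.

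Most chaperones varied together with Hspa5. After the group means were removed, Pearson's r with Hspa5 over the 16 libraries was at least 0.6 for 21 of the 31 other tested members, against 3.47% of all tested genes, and its median was 0.77 over the members and 0.00 over all genes. The libraries come from 1 count table, and Hspa5 itself was chosen as the reference because it encodes the main ER chaperone. In 100000 permutations within groups, with Benjamini-Hochberg adjustment over the 31 pairs, the same 21 members had an adjusted p under 0.05, all with a positive r, and 20 did by Spearman's rho. The arms divided unevenly: 14 of 14 chaperones, 5 of 7 degradation genes and 2 of 4 sensors and transducers passed. In the ATF4 arm 0 of 5 genes passed, and in the translocon 0 of 1. Ddit3, Trib3, Ppp1r15a, Chac1 and Sec61b had 7 to 109 counts per library, fewer than most chaperones, while Atf4 had 395 to 842. The part of counting error in their r was not tested.

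Manf, a secreted ER protein that binds BiP, followed Hspa5 most closely (r = 0.99, rho = 0.98, permutation adjusted p = 0.00012). That adjusted p was the smallest among the 31 and was shared with Hyou1, Syvn1, Dnajb11 and Sel1l. Hyou1, the nucleotide exchange factor GRP170 of BiP, had an r of 0.98 and a rho of 0.96, and Syvn1, the ubiquitin ligase HRD1 of the degradation complex, an r of 0.96 and a rho of 0.90. Dnajb11 and Dnajb9, J-domain partners of BiP, had an r of 0.93 and 0.90, and Sel1l, the adaptor of Syvn1, an r of 0.89. Among the sensors and transducers, Eif2ak3 (r = 0.86) and Xbp1 (r = 0.83) passed, while Ern1 (r = 0.51) and Atf6 (r = 0.33) did not. Derl3, a derlin of the degradation channel, had an r of 0.27 and a rho of 0.01, and Herpud1 an r of 0.55 and a rho of 0.43; neither passed. The lowest values were those of Trib3, a pseudokinase that restrains ATF4 signalling (r = -0.45), and Ppp1r15a, the GADD34 subunit that dephosphorylates eIF2α (r = -0.42), neither past the threshold.

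Of the 8 members with an ERSE match other than Hspa5, 7 passed, with a median r of 0.74; Derl3 was the exception. Of the 19 tested members with a promoter and no ERSE match, 11 passed, with a median r of 0.72. The difference between these sets was not tested. Without the 2 libraries farthest from the median of Hspa5, Cyp2b-null male 3 and hCYP2B6-Tg female 5, 15 of the 31 passed, with 8 of the 14 chaperones among them, and the median r was 0.66. Exact permutation within the 8 female libraries alone gave 16 and within the 8 male libraries 14. In males the exact test also passed Trib3 with a negative sign (r = -0.80, adjusted p = 0.042), whereas r was -0.04 in females. The remaining ATF4 arm genes, Ddit3, Ppp1r15a, Atf4 and Chac1, had an r of 0.79, -0.79, 0.66 and 0.40 in males, without passing. In females their r was -0.09, -0.23, -0.09 and -0.15.

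**Figure D2:**
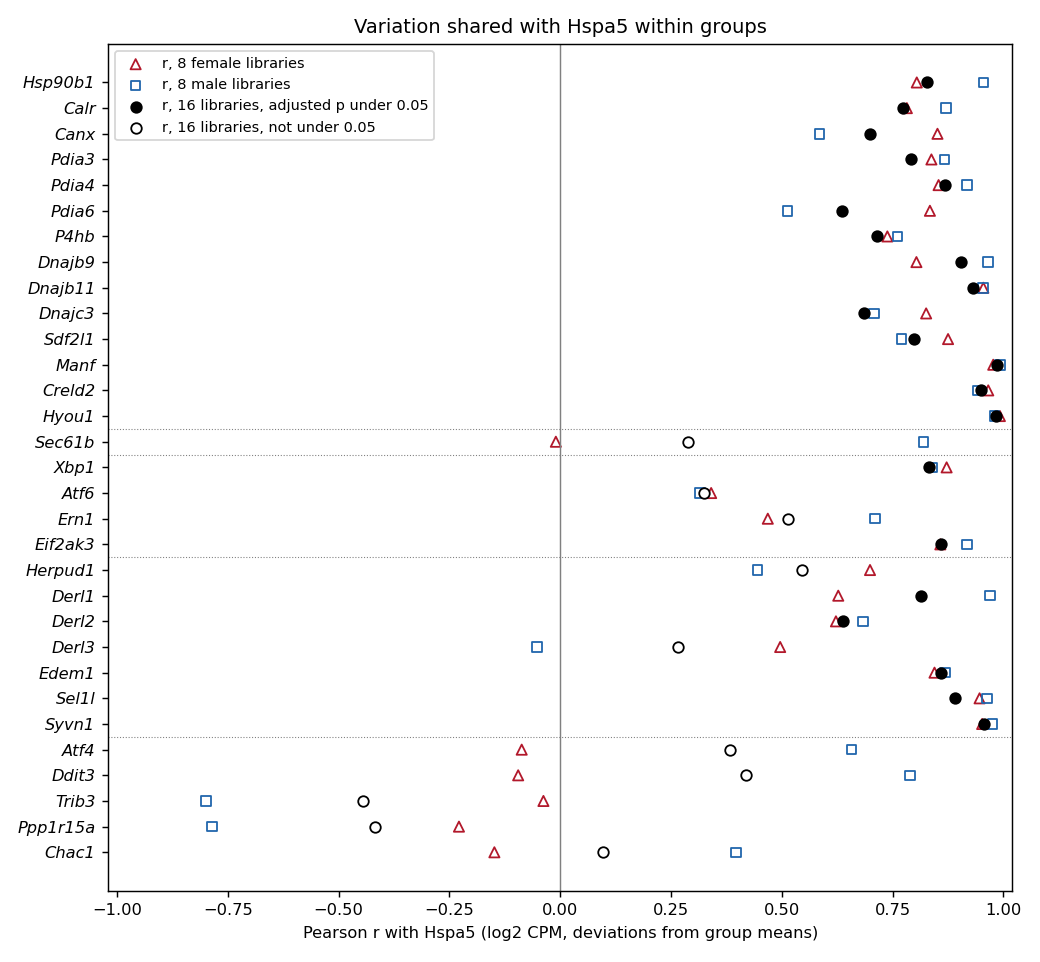
Pearson's r with Hspa5 (x axis) for each of the other 31 tested members (rows, by arm with dotted lines), as circles over 16 libraries, triangles over the 8 female libraries and squares over the 8 male libraries, all from log2 CPM after subtraction of group means. Filled circles mark an adjusted permutation p under 0.05 and lie between 0.64 and 0.99; the ATF4 arm at the bottom has open circles from -0.45 to 0.42.

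The first comparison asked how the livers of hCYP2B6-Tg and Cyp2b-null females differed. No member passed the test (edgeR's quasi-likelihood test, Benjamini-Hochberg adjustment over 13470 genes, threshold 0.05), nor did any other gene (0%). DESeq2 and limma voom also called 0 members. At an unadjusted p under 0.05, 16 of the 32 tested members were higher in hCYP2B6-Tg females, against 3.94% of all genes, and 0 were lower, against 3.65%; DESeq2 and limma voom gave 17 and 18. Estimates were positive for 30 of 32 members, against 50.4% of genes, with a median log2 fold change of 0.32 over members and 0.00 over all genes. Since most of these members vary together, they do not count as separate observations. The 16 became 3 without hCYP2B6-Tg female 5, the highest of its group for every chaperone, and positive estimates then numbered 29 of 33, Asns then passing the filter.

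By arm, estimates were positive for 15 of 15 chaperones (median 0.47) and 7 of 7 degradation genes (median 0.44). They were positive for 4 of 4 sensors and transducers (median 0.29) and 3 of 5 ATF4 arm genes (median 0.22). Without hCYP2B6-Tg female 5 the medians of the chaperones and the degradation genes were 0.29 and 0.25. At an unadjusted p under 0.05, 10 of 15 chaperones, 4 of 7 degradation genes and 2 of 4 sensors and transducers were higher. In the ATF4 arm it was 0 of 5 genes, near the 3.94% of all genes that were higher. Differences between the arms were not tested.

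Syvn1 and Xbp1 were the members whose female groups did not overlap, both higher in hCYP2B6-Tg females, as in 1.74% of all genes. Syvn1 had 90.2, 155, 90.6 and 244 CPM in hCYP2B6-Tg females, against 43.8, 41.1, 63.9 and 89.9 CPM in Cyp2b-null females. Libraries 1 and 4 of the hCYP2B6-Tg females lay just above the highest Cyp2b-null female, and the log2 fold change was 1.27 ± 0.43 (SE), with an adjusted p of 0.57 by edgeR. Xbp1 had 197, 209, 205 and 249 CPM in hCYP2B6-Tg females, against 167, 157, 150 and 194 CPM in Cyp2b-null females. Its log2 fold change was 0.37 ± 0.15 (SE, adjusted p = 0.60).

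Derl3 had the smallest p and the largest estimate. It was at 1.07, 6.28, 4.38 and 19.9 CPM in hCYP2B6-Tg females, against 0.876, 1.09, 0.230 and 0.624 CPM in Cyp2b-null females, from 8, 54, 29 and 156 counts and from 5, 7, 2 and 6 counts. The lowest hCYP2B6-Tg female lay within the Cyp2b-null range, and the log2 fold change of 3.57 had a 95% interval of 1.71 to 5.43 (adjusted p = 0.45). Creld2, with the per-library values above, followed at 1.34 ± 0.56, ahead of Syvn1, and after it came Sdf2l1, a partner of Dnajb11 in the BiP cycle, at 1.15 ± 0.46 and Hyou1 at 1.05 ± 0.41 on the log2 scale (SE).

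Hyou1 averaged 276 ± 114 CPM in hCYP2B6-Tg females and 133 ± 49.4 CPM in Cyp2b-null females (SD, n = 4 each). Manf averaged 151 ± 45.0 CPM in hCYP2B6-Tg females and 80.2 ± 34.3 CPM in Cyp2b-null females. Sdf2l1 averaged 41.3 ± 22.4 CPM in hCYP2B6-Tg females and 18.2 ± 9.62 CPM in Cyp2b-null females. In all 3 the highest Cyp2b-null female, library 5, lay above the lowest hCYP2B6-Tg female. Hspa5 itself averaged 1436 ± 468 CPM in hCYP2B6-Tg females and 880 ± 271 CPM in Cyp2b-null females, with a log2 fold change of 0.71 and a 95% interval of -0.05 to 1.46.

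The remaining chaperones had estimates from 0.03 to 0.77. Pdia6, a disulfide isomerase that also acts on the sensors, had 201, 271, 247 and 305 CPM in hCYP2B6-Tg females, against 180.5, 191, 196 and 251 CPM in Cyp2b-null females, a log2 fold change of 0.32 ± 0.11 (SE). Dnajc3, the BiP co-chaperone p58IPK that also restrains PERK, was at 0.32 ± 0.11, Hsp90b1 and Pdia3 were at 0.30 ± 0.13 and 0.30 ± 0.12, and Pdia4 at 0.54 ± 0.22. Calr and Canx, the lectin chaperones, were at 0.14 ± 0.12 and 0.14 ± 0.08, and P4hb at 0.03 ± 0.09. The adjusted p of these 8 members ran from 0.55 to 0.98. Without hCYP2B6-Tg female 5 the estimates were 0.23 for Pdia6, 0.15 for Dnajc3, 0.13 for Hsp90b1, 0.15 for Pdia3 and 0.29 for Pdia4. Among the other members, Dnajb9 was at 0.77, Dnajb11 at 0.47, Eif2ak3 at 0.51, Sel1l at 0.45 and Herpud1 at 0.44, while Ern1, Edem1 (a lectin that hands glycoproteins to degradation), Derl2, Atf6, Sec61b and Derl1 lay between 0.06 and 0.22.

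**Figure D3:**
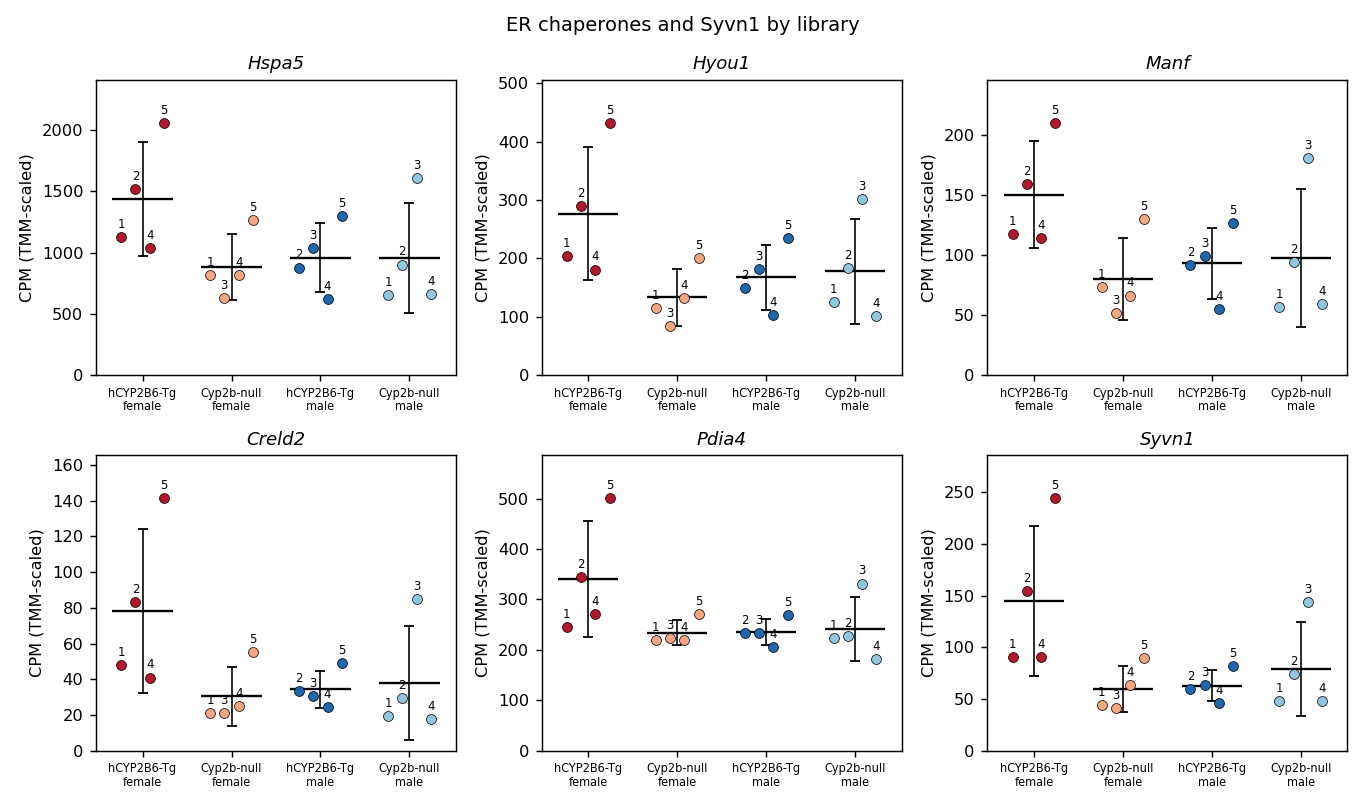
CPM of Hspa5, Hyou1, Manf, Creld2, Pdia4 and Syvn1 by library (points, numbered as in the titles) in the 4 groups, with the mean as a horizontal line and the SD as error bars (n = 4). In each panel hCYP2B6-Tg female 5 is the highest library, at 2062 CPM for Hspa5, and the groups overlap except for Syvn1, which is higher in hCYP2B6-Tg females than in either Cyp2b-null females or hCYP2B6-Tg males.

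In males the members lay evenly on both sides of 0. No member passed the test, while 0.111% of all genes did, and DESeq2 and limma voom also called 0 members. Estimates were positive for 17 of 32 members, against 49% of genes, with a median log2 fold change of 0.01. Leaving out single libraries moved this number from 10, without hCYP2B6-Tg male 5, to 25, without Cyp2b-null male 3. The chaperone median was 0.00 and the estimates of the 15 chaperones ran from -0.50 for Sdf2l1 to 0.06 for Dnajc3. Hspa5 averaged 959 ± 283 CPM in hCYP2B6-Tg males and 955 ± 451 CPM in Cyp2b-null males, and its log2 fold change of 0.00 had a 95% interval of -0.75 to 0.76.

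Ern1 was the 1 member at an unadjusted p under 0.05 in males, with a lower level in hCYP2B6-Tg males, as had 3.74% of genes. It had 32.2, 36.1, 34.9 and 37.6 CPM in hCYP2B6-Tg males, against 44.3, 47.5, 50.1 and 38.2 CPM in Cyp2b-null males. The groups did not overlap, as in 2.37% of genes in that direction, although Cyp2b-null male 4 lay close to the hCYP2B6-Tg males. The log2 fold change was -0.36 ± 0.13 (SE, adjusted p = 0.54 by edgeR). In females Ern1 had a positive estimate of 0.22 ± 0.13.

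The difference between the genotype estimates of the sexes, tested as an interaction in the same fit, passed for 0 members, as for 0.0445% of genes, and DESeq2 and limma voom called 0 as well. At an unadjusted p under 0.05 it gave 6 members, Ern1, Derl3, Xbp1, Syvn1, Pdia6 and Sdf2l1, all with the higher estimate in females, against 4% of genes. The count was 3 without hCYP2B6-Tg female 5 or without Cyp2b-null male 3, and 11 without Cyp2b-null female 5. Ern1 had the smallest p, with a difference of 0.58 ± 0.19 on the log2 scale (SE, adjusted p = 0.44). The estimate was larger in females for 27 of 32 members, against 51.4% of genes. Averaged over the sexes, the genotype estimate also passed for 0 members, against 0.0148% of genes, and 3 members, Dnajc3, Herpud1 and Derl3, had an unadjusted p under 0.05 and a higher level in hCYP2B6-Tg livers, against 3.25% of genes. That number ranged from 1 to 15 over single omitted libraries, with 15 without Cyp2b-null male 3; DESeq2 gave 5 and limma voom 4.

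**Figure D4:**
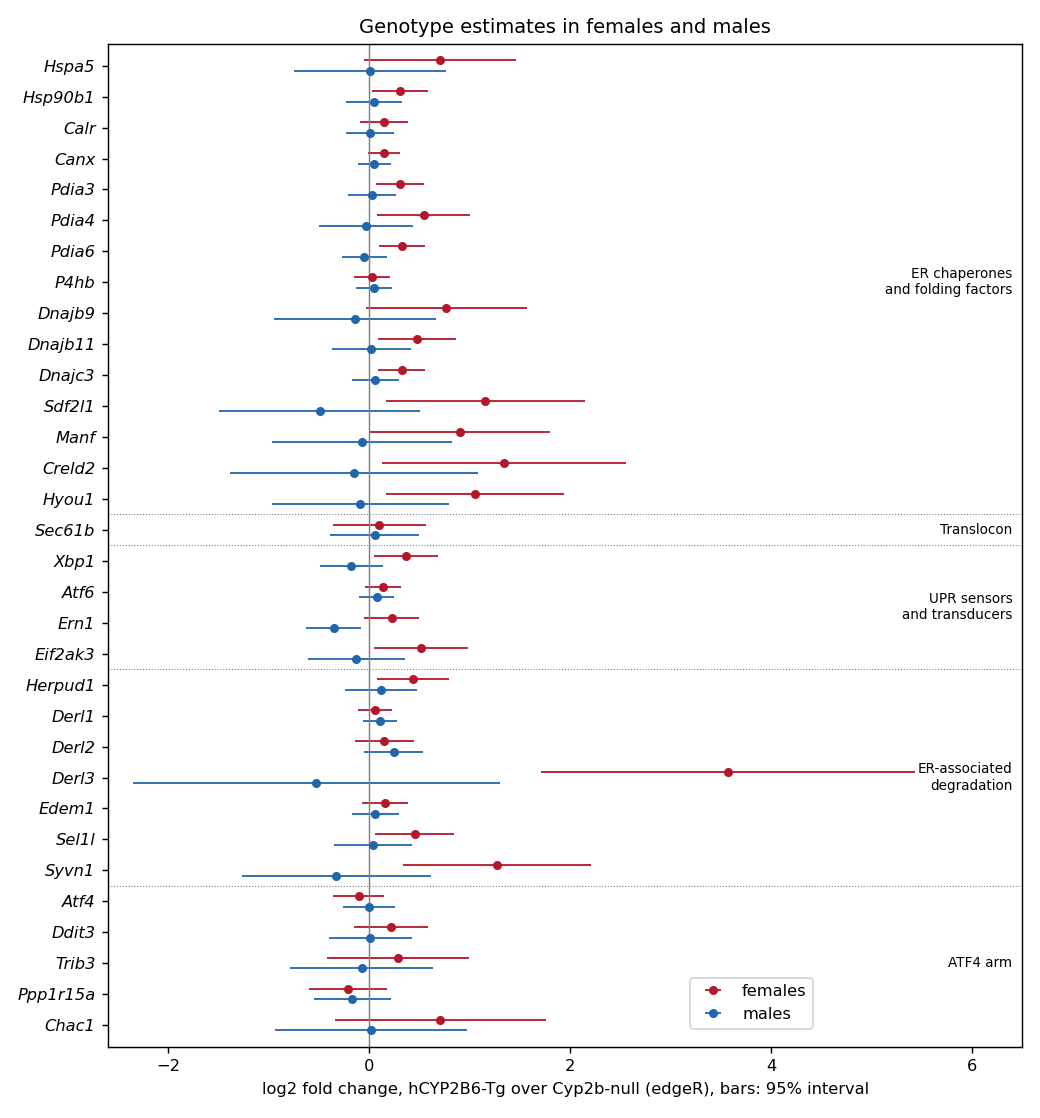
Log2 fold change of hCYP2B6-Tg over Cyp2b-null libraries (x axis) with its 95% interval for each tested member (rows, by arm with dotted lines), in females (red) and males (blue), from edgeR. Female points of the chaperones and degradation genes lie at or above 0.03, male points on both sides of 0, and Derl3 in females lies farthest out at 3.57.

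Between the sexes, the members passing the test by edgeR were no larger a share than among all genes. In hCYP2B6-Tg livers, 1 of 32 members passed the test, Ddit3, against 10.3% of all genes in either direction and 4.69% that were higher. Ddit3, the transcription factor CHOP that promotes cell death under lasting ER stress, rose in females. It had 9.53, 12.1, 14.4 and 10.2 CPM in hCYP2B6-Tg females, against 7.92, 6.91, 6.51 and 8.29 CPM in hCYP2B6-Tg males. All females lay above all males, as in 7.41% of genes, and the log2 fold change was 0.64 ± 0.19 (SE, adjusted p = 0.030 by edgeR). The call was lost without female 2, female 4, male 3 or male 4, and the adjusted p over single omitted libraries ran from 0.018 to 0.11. In Cyp2b-null livers Ddit3 averaged 9.82 ± 1.59 CPM in females and 7.29 ± 2.05 CPM in males, a log2 fold change of 0.43 ± 0.19 that did not pass (adjusted p = 0.21).

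Cyp2b-null livers had 2 of 32 members past the test, Pdia6 and Ern1, both lower in females, against 7.52% of genes in either direction and 3.95% that were lower. Pdia6 had 180.5, 191, 196 and 251 CPM in Cyp2b-null females, against 275, 273, 304.5 and 278.5 CPM in Cyp2b-null males. No female reached the lowest male, as in 6.64% of genes, and Pdia6 fell by 0.47 on the log2 scale in females (SE 0.11, adjusted p = 0.0083). Its adjusted p was 0.037 or less when any single library was left out, and 0.17, no longer a call, without Cyp2b-null females 1 and 3 and hCYP2B6-Tg male 4 together. Ern1 had 31.4, 23.0, 39.4 and 32 CPM in Cyp2b-null females, against 44.3, 47.5, 50.1 and 38.2 CPM in Cyp2b-null males. Female 4 lay above male 4, and Ern1 fell by 0.51 on the log2 scale (SE 0.13, adjusted p = 0.016). That call was lost without female 3, male 2 or male 3, with an adjusted p of 0.068 at most.

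In hCYP2B6-Tg livers Pdia6 averaged 256 ± 43.9 CPM in females and 273 ± 20.5 CPM in males, and Ern1 36.7 ± 5.56 CPM in females and 35.2 ± 2.29 CPM in males. The log2 fold changes there were -0.09 ± 0.11 and 0.06 ± 0.13. The difference between the genotypes in these sex estimates is the interaction given above, which neither gene passed. P4hb lay lower in all females than in all males of hCYP2B6-Tg livers, as in 8.2% of genes, without passing. It had 1043, 1322, 1273 and 1385 CPM in hCYP2B6-Tg females, against 1446, 1522, 1458 and 1482 CPM in hCYP2B6-Tg males. The same order held in Cyp2b-null livers, with 1253, 1130, 1222 and 1327 CPM in Cyp2b-null females, against 1342, 1341, 1628 and 1398 CPM in Cyp2b-null males. Its log2 fold changes were -0.23 ± 0.09 (adjusted p = 0.093) and -0.21 ± 0.09 (adjusted p = 0.16).

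The sex estimates were also counted by direction, without a test between the genotypes. In hCYP2B6-Tg livers 21 of 32 were positive, or higher in females, against 52.5% of genes, and 7 had an unadjusted p under 0.05, against 23.5%. In Cyp2b-null livers 3 of 32 were positive, against 50.7%, and 6 had an unadjusted p under 0.05, against 19.9%. These comparisons share their libraries with the genotype comparisons, and Cyp2b-null male 3 alone moved the 3 to 12 when it was left out. Besides Ddit3, the members with an unadjusted p under 0.05 in hCYP2B6-Tg livers were Derl3, Edem1, P4hb, Syvn1, Eif2ak3 and Pdia4, of which P4hb had a negative estimate. In Cyp2b-null livers they were Pdia6, Ern1, Xbp1, P4hb, Ddit3 and Atf6, of which Ddit3 had a positive estimate. Groups did not overlap for Syvn1 in hCYP2B6-Tg livers, at 90.2 to 244 CPM in females and 46.2 to 82.2 CPM in males (adjusted p = 0.11 by edgeR). In that direction 7.41% of all genes had groups that did not overlap. Nor did they overlap for Derl3 in Cyp2b-null livers, at 0.230 to 1.09 CPM in females and 1.23 to 4.32 CPM in males (adjusted p = 0.31 by edgeR). That order held in 6.64% of all genes, and the Derl3 levels of these females rest on 2 to 7 counts per library. Xbp1 averaged 167 ± 19.5 CPM in Cyp2b-null females, against 219 ± 38.0 CPM in Cyp2b-null males (log2 fold change -0.39 ± 0.15, adjusted p = 0.13).

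**Figure D5:**
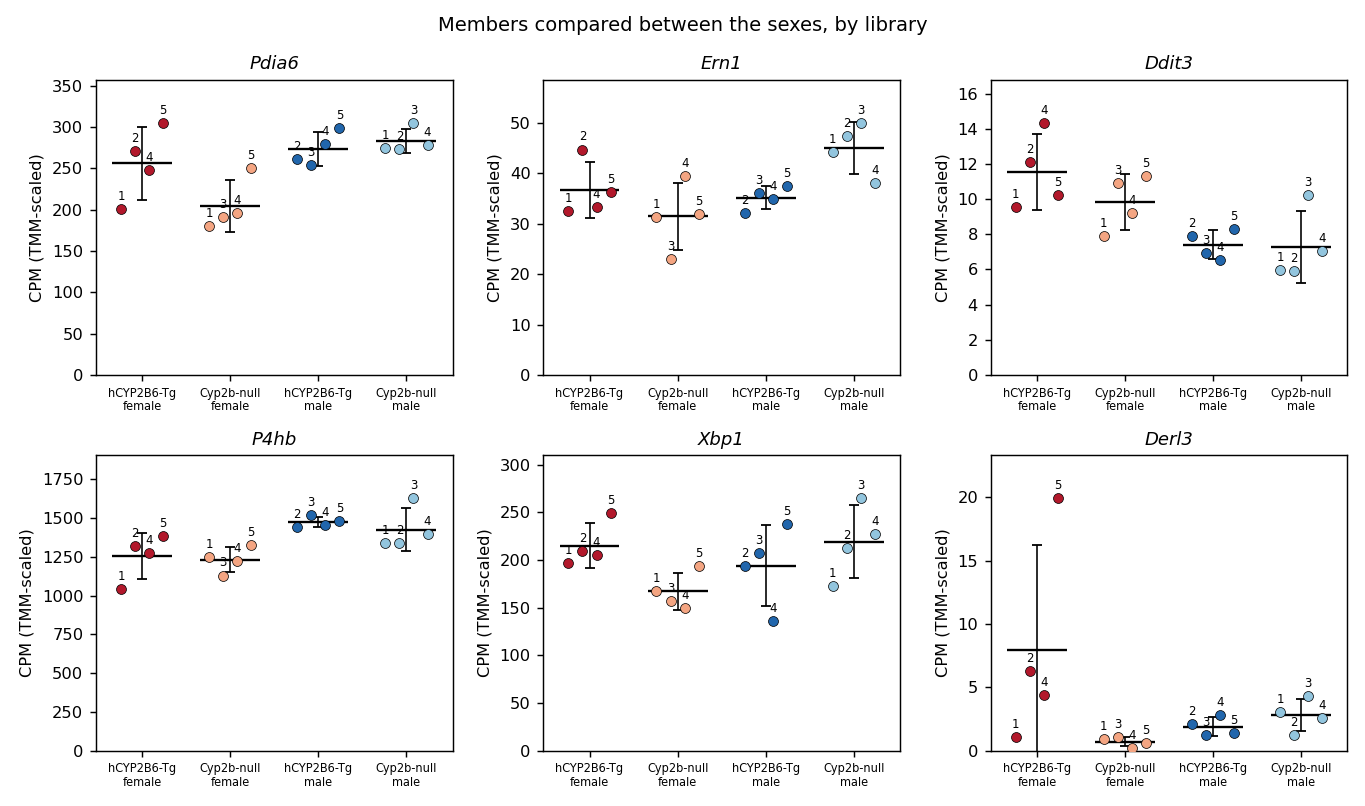
CPM of Pdia6, Ern1, Ddit3, P4hb, Xbp1 and Derl3 by library (points, numbered as in the titles) in the 4 groups, with the mean as a horizontal line and the SD as error bars (n = 4; the lower bar of Derl3 in hCYP2B6-Tg females passes below 0). Ddit3 lies between 9.53 and 14.4 CPM in hCYP2B6-Tg females and between 6.51 and 8.29 CPM in hCYP2B6-Tg males, and Pdia6 lies below 251 CPM in all Cyp2b-null females and above 273 CPM in all Cyp2b-null males.

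Kupffer cell and macrophage markers differed by sex: 7 of 7 had positive estimates, or higher levels in females, in both genotypes, and 1 passed in hCYP2B6-Tg and 2 in Cyp2b-null livers. Their summed level was 351 to 480 CPM in hCYP2B6-Tg females and 269 to 343 CPM in hCYP2B6-Tg males, and 333 to 569 CPM in Cyp2b-null females, against 239 to 376 CPM in Cyp2b-null males. Their part in the sex differences of Ddit3, Pdia6 and Ern1 was not tested. Of the other 8 marker lists, hepatocyte markers had 2 of 5 tested genes past the test by sex in each genotype. Both were lower in females in hCYP2B6-Tg livers, and 1 was lower and 1 higher in Cyp2b-null livers. Fat cell markers had 1 of 2 in each genotype, immediate early genes 1 of 5 in hCYP2B6-Tg and acinar markers 1 of 2 in Cyp2b-null livers. The plasma cell, endothelial, stellate and cholangiocyte lists had 0. Over all genes, 10.3% passed in hCYP2B6-Tg and 7.52% in Cyp2b-null livers. By genotype none of the 9 lists had a gene past the test. In the female genotype comparison the plasma cell and B cell markers, whose defining gene Jchain summed to 60 counts in hCYP2B6-Tg females and 155 in Cyp2b-null females, lay at 5.49 to 7.4 CPM in hCYP2B6-Tg females and 5.96 to 21.6 CPM in Cyp2b-null females. The upper end is 1 library, Cyp2b-null female 3, and the others reached at most 8.0 CPM. Cd79b, the other tested gene of that list, had 47 counts in hCYP2B6-Tg females and 48 in Cyp2b-null females. The part of these cells in the chaperone estimates was not tested.

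The ATF4 arm, apart from Ddit3, held no member past the test in any of the 6 comparisons. Over all genes, 0% passed for genotype in females, 0.111% in males, 0.0148% averaged over the sexes and 0.0445% for the interaction. By sex, 10.3% of genes passed in hCYP2B6-Tg and 7.52% in Cyp2b-null livers. With so few genes in the arm, an absence of calls is near these shares. Atf4 itself had 81.2, 70.2, 75.7 and 65.5 CPM in hCYP2B6-Tg females, against 86.7, 74.7, 66.2 and 87.5 CPM in Cyp2b-null females, and 82.9, 80.9, 60.4 and 76.2 CPM in hCYP2B6-Tg males, against 71.2, 88.4, 81.8 and 59.1 CPM in Cyp2b-null males. All groups overlap, and the 95% interval of its genotype estimate ran from -0.36 to 0.15 in females and from -0.26 to 0.25 in males on the log2 scale. Trib3 ranged from 3.33 to 9.88 CPM over all libraries and Ppp1r15a from 5.11 to 10.8 CPM. Chac1, which degrades glutathione, ranged from 0.728 to 7.20 CPM, or 7 to 62 counts. At these low counts its within-group SD was above that of 98.1% of genes. Asns, below the filter, averaged 0.212 and 0.254 CPM in hCYP2B6-Tg and Cyp2b-null females, and 0.998 and 0.641 CPM in hCYP2B6-Tg and Cyp2b-null males. Exact two-sided permutation tests of these levels gave a p of 0.86 for genotype in females, 0.60 for genotype in males, 0.26 for sex in hCYP2B6-Tg and 0.29 for sex in Cyp2b-null livers, where 4 libraries against 4 allow no p below 0.029.

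The remaining genes of the pathway were read from 6 lists with 117 genes. None passed in any genotype comparison or in the interaction. The lists held 20 tested of 21 other ER folding genes, 23 of 24 genes of the translocon, signal peptidase and oligosaccharyltransferase, 19 of 19 other degradation genes, 18 of 23 other ATF4 targets, 12 of 12 aminoacyl-tRNA synthetases and 15 of 18 other sensors and eIF2 control genes. Their median log2 fold changes in the female genotype comparison were 0.10, 0.10, 0.02, -0.08, 0.09 and 0.06, against 0.32 over the members. The smallest p among them in females belonged to Pdia5, a disulfide isomerase, with 53.6 ± 13.9 CPM in hCYP2B6-Tg females and 35.3 ± 4.66 CPM in Cyp2b-null females (SD, n = 4), a log2 fold change of 0.60 ± 0.15 (SE, adjusted p = 0.45). Ero1lb, the oxidase that recharges disulfide isomerases, was at 73.1 ± 22.7 CPM in hCYP2B6-Tg females and 44.8 ± 4.38 CPM in Cyp2b-null females (log2 fold change 0.71 ± 0.18, adjusted p = 0.45).

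Cebpb, a liver transcription factor and ATF4 target, had the smallest p of these lists for genotype averaged over the sexes. It was at 79.6 ± 11.2 CPM in hCYP2B6-Tg females and 58.3 ± 7.90 CPM in Cyp2b-null females, and at 110 ± 14.3 CPM in hCYP2B6-Tg males and 86.9 ± 15.5 CPM in Cyp2b-null males. The averaged log2 fold change was 0.40 ± 0.09 (SE, adjusted p = 0.20). Creb3l2, a sensor-like transcription factor of the ER membrane, was at 43.9 ± 8.91 CPM in hCYP2B6-Tg females and 24.3 ± 9.77 CPM in Cyp2b-null females, with a log2 fold change of 0.83 ± 0.26 (adjusted p = 0.55).

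By sex, 7 of 107 tested genes of these lists passed in hCYP2B6-Tg livers, or 6.54%, against 10.3% of all genes, and 5 in Cyp2b-null livers, or 4.67%, against 7.52%. These shares do not exceed those of all genes, and the genes below are given as single values. Vldlr, a lipoprotein receptor counted among ATF4 targets, rose most and in both genotypes: it averaged 30.3 ± 9.16 CPM in hCYP2B6-Tg females and 7.31 ± 2.57 CPM in hCYP2B6-Tg males, and 33 ± 1.95 CPM in Cyp2b-null females, against 9.59 ± 2.71 CPM in Cyp2b-null males (adjusted p = 1.1e-05 and 3.7e-05). Cebpb fell in females of both genotypes, by 0.47 and 0.58 on the log2 scale (adjusted p = 0.021 and 0.0068), and the first of these calls was lost when hCYP2B6-Tg female 1 or 4 or male 2 or 3 was left out. Slc3a2, a heavy chain of amino acid transporters, rose in hCYP2B6-Tg females by 0.34 ± 0.09 (adjusted p = 0.016), and Fkbp14, an ER prolyl isomerase, fell by 0.80 (adjusted p = 0.011). Slc3a2 lost its call without hCYP2B6-Tg female 5 or male 4, and Fkbp14 without hCYP2B6-Tg male 5. In Cyp2b-null females Srpr, the receptor of the signal recognition particle, fell by 0.38 (adjusted p = 0.010).

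The other calls depended on more libraries. In hCYP2B6-Tg females Ssr3, a translocon-associated subunit, fell by 0.28 (adjusted p = 0.044), and the eIF2 genes Eif2ak1 and Eif2s1 fell by 0.29 and 0.33 (adjusted p = 0.043 and 0.049). In Cyp2b-null females Ufd1l, a cofactor of the degradation segregase, fell by 0.42 (adjusted p = 0.031), and Atf3, a stress-induced transcription factor, rose by 1.77 (adjusted p = 0.033). Each of these 5 was lost when any 1 of at least 5 libraries was left out. By sex in hCYP2B6-Tg livers, the synthetases and the other degradation genes had 0 calls by edgeR. At an unadjusted p under 0.05 they had 2 of 12 and 4 of 19 genes, against 23.5% of all genes. By sex in Cyp2b-null livers, the other ER folding genes, the synthetases and the other sensors and eIF2 control genes had 0 calls. At an unadjusted p under 0.05 they had 2 of 20, 1 of 12 and 1 of 15 genes, against 19.9% of all genes.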

How the data were processed

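Liver RNA of 16 libraries was extracted with Trizol and prepared with the NEB Next Ultra RNA kit, per the labels' protocols. The authors deposited whole-number read counts per gene symbol and library; the tools GSNAP, Subread, Trimmomatic, FastQC and edgeR and the build GRCm38.p6 are listed, without versions, per the submitters' processing notes. The handling of strand and of multiply mapped reads was not found in these sources. Of 41585 rows, 16032 had no count. A row for the human transgene is not analysed here. A count of 0 allows up to 0.310 to 0.537 CPM per library, taking 3 counts as the limit, for counting error only. Within groups, no pair of the 24 looked like copies of one library (chi-square per degree of freedom 6.53 to 19.7).

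Groups came from the titles. The counts were filtered with filterByExpr and scaled by TMM, and 13470 genes were tested with edgeR 4.0.16 (quasi-likelihood, robust, two-sided) in R 4.3.3, in 1 fit of the 4 groups, with Benjamini-Hochberg adjustment over all tested genes and a threshold of 0.05. Standard errors are the size of the log2 fold change over the root of F, and 95% intervals from the t distribution with the fit's degrees of freedom. The steps were tested on simulated data. Deviations for the Hspa5 correlations are log2 CPM (prior count 2) minus group means. Exon lengths are from GENCODE M21. Alternatives were DESeq2 1.42.0, limma 3.58.1 voom, other scalings and filters, ribosomal RNA rows left out, a replicate block, each library left out, and 3 libraries left out together; the older edgeR test and the 2 groups alone were added after seeing the data.

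The 33 members, the 6 pathway lists and the 9 marker lists were chosen with earlier results of these data known. All members are accounted for. In the pathway lists, up to 4 genes past the threshold, or otherwise up to 2 with the smallest p, were eligible to be named per list and comparison, and those with the largest or best supported differences are given.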

Additional observations from a re-analysis of the deposited data

Results flagged for a closer look

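In each group of 4, a library was singled out where its distance to the nearest other library, divided by the range of the group, passed Dixon's critical value of 0.829. This happened in 12 of 132 checks, where chance gives about 1 in 20, and since the chaperones vary together the checks are not independent. Cyp2b-null male 3 stood above the rest of its group in 5 of them: Calr at 902 CPM (others 718 to 737), Pdia3 at 614 CPM (482 to 492), Pdia6 at 305 CPM (273 to 279), Dnajb11 at 116 CPM (73.9 to 79.5) and Sdf2l1 at 54.1 CPM (19.1 to 23.6). Cyp2b-null female 5 stood above its group for Pdia4 at 271 CPM (220 to 224) and Creld2 at 55.0 CPM (20.8 to 24.8), and hCYP2B6-Tg male 5 for Pdia3 at 573 CPM (512 to 517). Canx was low in Cyp2b-null male 1 at 431 CPM (446 to 449). In the ATF4 arm, Trib3 was low in hCYP2B6-Tg female 1 at 3.89 CPM (7.70 to 8.17), Chac1 was low in hCYP2B6-Tg male 4 at 1.80 CPM (5.53 to 5.80), and Asns was high in Cyp2b-null male 2 at 1.65 CPM (0.270 to 0.360), a level of few counts.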

How the results depend on the processing

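No value changed its sign past the threshold. No genotype comparison called a member in any setting. Leaving out single libraries, members at an unadjusted p under 0.05 numbered 3 to 18 for genotype in females, 1 to 2 in males, 1 to 15 averaged over the sexes and 3 to 11 for the difference between the sexes; positive estimates numbered 28 to 31, 10 to 25, 29 to 30 and 26 to 29. By sex, 0 to 3 members were called in hCYP2B6-Tg and 1 to 3 in Cyp2b-null livers, with 4 to 12 and 4 to 8 at an unadjusted p under 0.05 and 19 to 25 and 2 to 12 positive estimates, and 19 to 22 members correlated with Hspa5. Without Cyp2b-null females 1 and 3 and hCYP2B6-Tg male 4, which an earlier analysis of these data doubted, the members at an unadjusted p under 0.05 numbered 2 for genotype in females, 2 in males, 0 averaged and 3 for the difference; by sex 0 and 0 were called, with 12 positive estimates in Cyp2b-null livers, and Pdia6 was then not called (adjusted p = 0.17). DESeq2 gave 5 members at an unadjusted p under 0.05 for the averaged genotype and called 3 by sex in hCYP2B6-Tg livers. Limma voom called 2 there, with 12 at an unadjusted p under 0.05. Library totals alone called 2, and the 2 groups alone, added after seeing the data, 3. Over all tested genes, deviations of the 12 pairs of libraries with the same title number correlated between -0.11 and 0.12. Of these pairs, 3 correlated best with their own number. Pairing among the members alone was not tested. With a replicate block, members at an unadjusted p under 0.05 numbered 3 for genotype in males (7 positive estimates), 16 for the difference, 15 by sex in hCYP2B6-Tg livers (5 called) and 11 in Cyp2b-null livers, and 9 members correlated with Hspa5, against 21 without the block; number 5 is the library with the highest Hspa5 in each of the 3 groups that have one. The cause of these shifts was not tested. For 51 values of named genes, each value was checked in each setting. In settings other than single omitted libraries, 29 of these checks lost a call, 10 gained a call and 512 kept the same outcome. With single libraries omitted, 53 checks lost a call, 4 gained a call and 759 kept the same outcome. Depth limits Asns, Derl3 and Chac1 most.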

Other observations

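Correlations of deviations from group means over all pairs of tested members are given as a description over 16 libraries of 1 count table. The median was 0.79 among the 105 pairs of chaperones, 0.65 between chaperones and degradation genes and 0.52 between chaperones and the sensors and transducers. It was 0.04 over the 75 pairs of a chaperone with an ATF4 arm gene and -0.04 over the 10 pairs within the ATF4 arm. Those 10 pairs ranged from -0.65, for Atf4 with Trib3, to 0.14.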
